A study of Sus scrofa with 10 samples.

Results

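The contractile genes of the myofibroblast were followed in aortic valve leaflets of pigs, as 10 genes given by name: the actin isoforms ACTA2 and ACTG2, the thin filament proteins TAGLN, CNN1, CALD1, TPM1 and TPM2, the myosin light chain MYL9, and the intermediate filament proteins DES and VIM. A probe set (a group of short probes read as 1 transcript) counted for a gene when the array annotation gave it that symbol and no other. All 10 genes were measured, by 18 probe sets, among 6765 genes and 23999 probe sets in all. The brightest probe set of a gene stood for it, and the other 8 are given beside it. Each value is a log2 expression level, so that a difference of 1 is a doubling.

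Leaflet RNA was read on 10 Affymetrix porcine arrays. Of these, 4 came from adult RFH swine aged 2 years, 3 from juvenile RFH swine aged 3 months and 3 from juvenile WT swine aged 3 months. RFH stands for the Rapacz Familial Hypercholesterolemic breed, which has inherited high blood cholesterol, and the WT animals were Rapacz Wisconsin Miniature Swine given as wild type (RFH -/-). All animals were female and ate standard chow, and the leaflets entered RNAlater in the hour after death. Adult WT leaflets were not analysed here, so the age of the RFH animals and the length of their exposure to high cholesterol cannot be told apart. Breed name and genotype also cannot be told apart between the juvenile groups. Nothing in the labels says that the arrays of a group are different animals, so the p-values measure only the spread between these samples.

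Valve interstitial cells are the fibroblast-like cells of the leaflet. When they become myofibroblasts they build stress fibres, in which smooth muscle actin, encoded by ACTA2, slides along non-muscle and smooth muscle myosin, and they pull on the surrounding matrix. Tropomyosins lie along the actin filament, calponin and caldesmon hold back the myosin motor, and phosphorylation of the regulatory light chain switches it on. Transcription of many of these genes is driven by serum response factor (SRF) with its cofactors of the myocardin family. Smooth muscle cells and pericytes use the same genes, so none of the 10 marks a myofibroblast alone. ACTA2 is the gene most often read as its sign in diseased valves.

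The array medians lay between 6.96 and 7.03 on the log2 scale. Replicate arrays of a group differed by a median SD of 0.188 per probe set for adult RFH, 0.125 for juvenile RFH and 0.0949 for juvenile WT leaflets. The excess of 3' over 5' signal in the control transcripts, which grows as RNA breaks down, was 1.75, 2.25, 2.84 and 2.12 on the adult RFH arrays, against 2.11 to 2.38 on the juvenile RFH and 1.99 to 2.18 on the juvenile WT arrays. Adult RFH replicate 3 had the highest such difference. The poly-A control transcripts averaged 7.12 ± 0.16 on adult RFH, 6.32 ± 0.02 on juvenile RFH and 6.54 ± 0.06 on juvenile WT arrays (SD), and their part in the differences below was not tested. The array of juvenile RFH replicate 2 stood apart for cardiac muscle transcripts. The mean of 23 cardiac markers was 8.08 there, against 5.79 and 5.97 on the other juvenile RFH arrays, and 15 of the 23 were highest on it. The same mean was 5.86 to 6.11 on adult RFH arrays and 5.69 to 5.72 on juvenile WT arrays.

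In adult compared with juvenile RFH leaflets, smooth muscle actin and the tropomyosin TPM1 fell, by 1.00 and 0.70 on the log2 scale. None of the 10 genes rose, and the other 8 did not pass the test, limma's moderated test with a Benjamini-Hochberg adjusted p under 0.05 over all probe sets. The 2 called genes are 20% of the 10, close to the 19.3% of all 6765 genes that were called, 7.85% of them as falls. The differences of 9 genes lay below 0, MYL9 being the exception, against 47.4% of all genes. Those of TAGLN, TPM2, DES and ACTG2 changed sign when 1 array was left out. Adult replicate 2 was the lowest adult array for 9 of the 10 genes, so the signs are not separate observations. The median difference of the 10 genes was -0.16, against 0.02 for all genes. In ACTA2 and TPM1 the adult and juvenile RFH arrays did not overlap, as in 29.9% of all genes, 13.3% with the adult values lower. Both calls were lost when juvenile RFH replicate 1, the juvenile RFH array with the highest ACTA2 and TPM1, was left out (ACTA2 -0.87, adjusted p = 0.0507, and TPM1 -0.58, adjusted p = 0.0632).

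**Figure D1:**
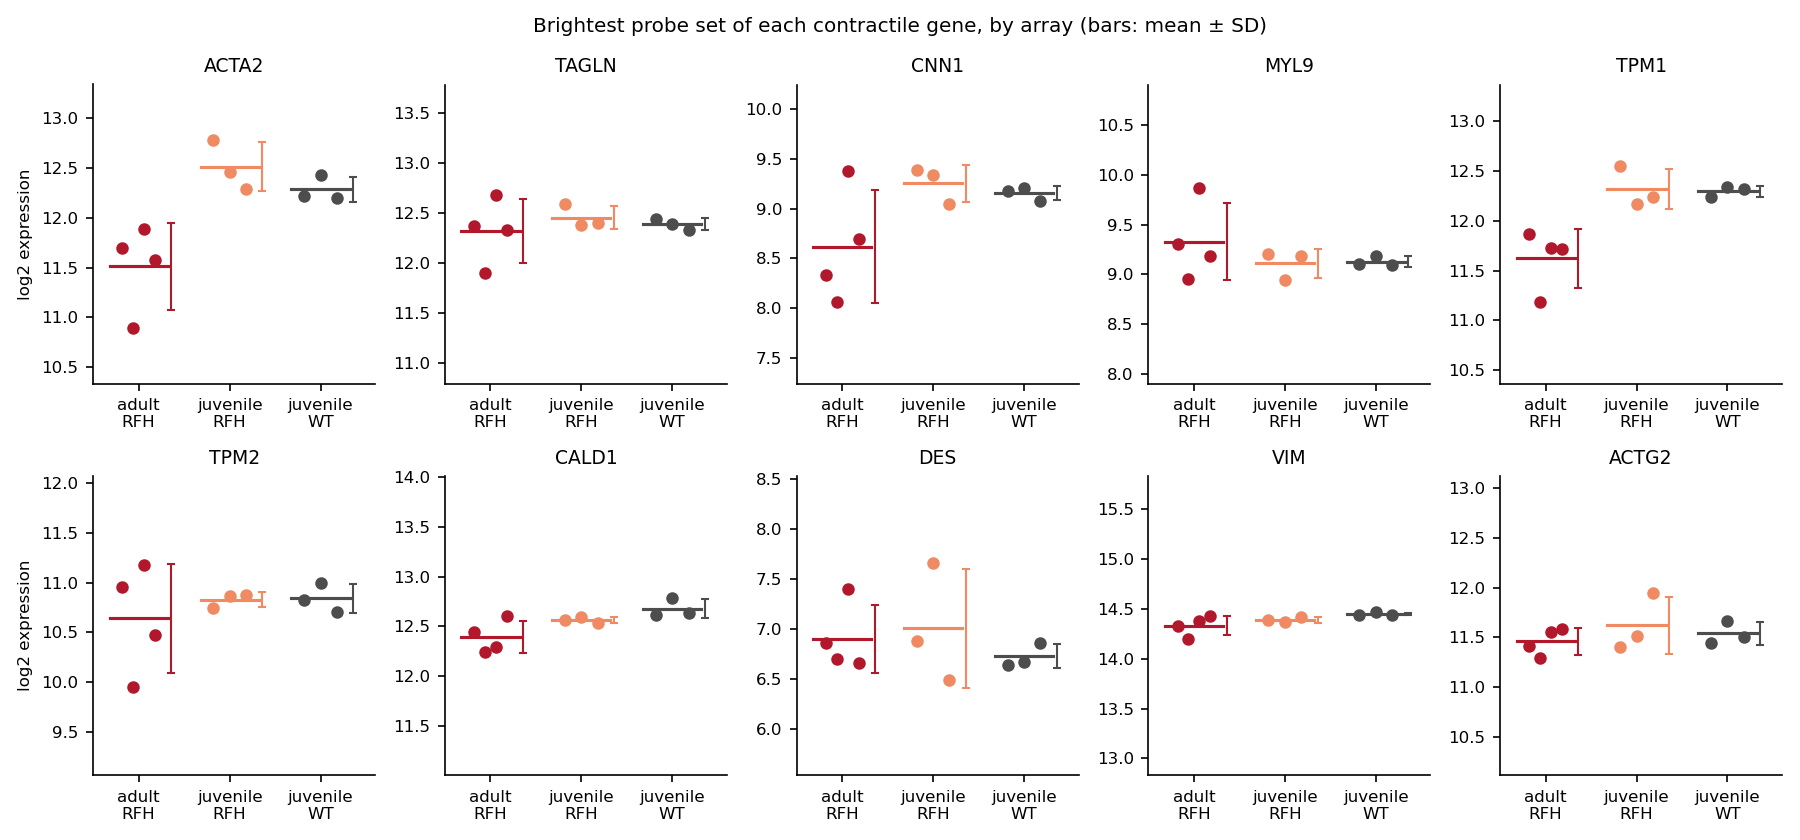
Log2 expression (vertical axis, 1 panel per gene, all panels of equal span) of the brightest probe set on each adult RFH, juvenile RFH and juvenile WT array, with points for arrays, lines for group means and bars for the SD. The adult points of ACTA2 and TPM1 lie below all juvenile points, while those of TAGLN, MYL9 and VIM overlap the juvenile RFH points.

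ACTA2 encodes smooth muscle alpha-actin. Its values were 11.70, 10.89, 11.88 and 11.57 on the adult RFH arrays, 12.78, 12.46 and 12.29 on the juvenile RFH arrays, and 12.22, 12.43 and 12.20 on the juvenile WT arrays. Every adult value lay below every juvenile value, with adult replicate 2 the lowest of all. Against juvenile RFH, ACTA2 in adults fell by 1.00 ± 0.21 (SE), with a 95% interval of -1.47 to -0.53 for the difference and an adjusted p of 0.0103, a 2.00-fold lower level. In whole leaflets, fewer cells that carry a transcript and less of it per cell cannot be told apart.

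ACTG2 encodes the gamma-actin of smooth muscle, a near copy of alpha-actin. Its brightest probe set gave 11.41, 11.30, 11.56 and 11.59 in adult RFH leaflets, 11.41, 11.51 and 11.94 in juvenile RFH leaflets, and 11.45, 11.67 and 11.51 in juvenile WT leaflets. The groups overlapped, and the difference between adult and juvenile RFH was -0.16, with an interval of -0.46 to 0.14 (adjusted p = 0.472). Its second probe set varied by more than 2 log2 units among replicates of both RFH groups, between 6.01 and 9.10 on adult arrays and between 6.13 and 8.64 on juvenile arrays, and its difference had an SE of 0.71. Actins share most of their coding sequence, and the probe sequences were not used here, so how far each probe set separates the isoforms was not tested.

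Tropomyosins gave the largest disagreement between probe sets of a gene. TPM1 makes the alpha-tropomyosin isoforms. Its brightest probe set read 11.86, 11.19, 11.72 and 11.72 in adult RFH leaflets, 12.55, 12.17 and 12.24 in juvenile RFH leaflets, and 12.24, 12.34 and 12.32 in juvenile WT leaflets. As for ACTA2, no adult value reached a juvenile one, and adult replicate 2 was the lowest. The difference was -0.70 ± 0.16 (SE; 95% interval -1.04 to -0.35, adjusted p = 0.0136), a 1.62-fold lower level in adults.

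The next brightest TPM1 probe set read 8.04, 6.97, 7.06 and 7.73 in adult RFH leaflets, 8.64, 9.08 and 8.24 in juvenile RFH leaflets, and 8.36, 8.57 and 8.57 in juvenile WT leaflets. The adult arrays were again all below the juvenile ones. The highest value, 9.08, was that of juvenile RFH replicate 2, the array with high cardiac transcripts, whose part here was not tested. The difference of -1.20 ± 0.27 (SE) had an adjusted p of 0.0128, and it passed the test under all alternatives run. The dimmest TPM1 probe set lay between 6.54 and 6.81 on adult RFH arrays and between 6.66 and 6.93 on juvenile RFH arrays, which overlapped (difference -0.09, adjusted p = 0.584). TPM1 is spliced into many isoforms, and which of them each probe set reads was not tested.

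TPM2 makes beta-tropomyosin. Its brightest probe set gave 10.96, 9.95, 11.18 and 10.48 in adult RFH leaflets, 10.74, 10.87 and 10.87 in juvenile RFH leaflets, and 10.82, 10.99 and 10.70 in juvenile WT leaflets. The adult arrays spread on both sides of the juvenile ones (difference -0.19, 95% interval -0.72 to 0.34, adjusted p = 0.646), and without adult RFH replicate 2 the difference was 0.043. The next brightest TPM2 probe set ran beside it across the arrays (Pearson r = 0.98 over 10 arrays) and differed by -0.13, and the one after that, with a mean of 5.94 over all arrays, by 0.07.

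The dimmest of the TPM2 probe sets behaved otherwise. It read 4.59, 4.50, 5.13 and 4.99 in adult RFH leaflets, 6.70, 5.49 and 6.54 in juvenile RFH leaflets, and 7.02, 7.01 and 6.98 in juvenile WT leaflets. The 3 groups did not overlap, with adult RFH lowest and juvenile WT highest. Adult RFH lay below juvenile RFH by 1.44 (difference -1.44 ± 0.26 SE, adjusted p = 0.00518, called under all alternatives run), a 2.72-fold lower level. Its mean over all arrays, 5.89, is under the array medians, and the probe set had r = 0.34 with the brightest TPM2 probe set over the 10 arrays.

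**Figure D2:**
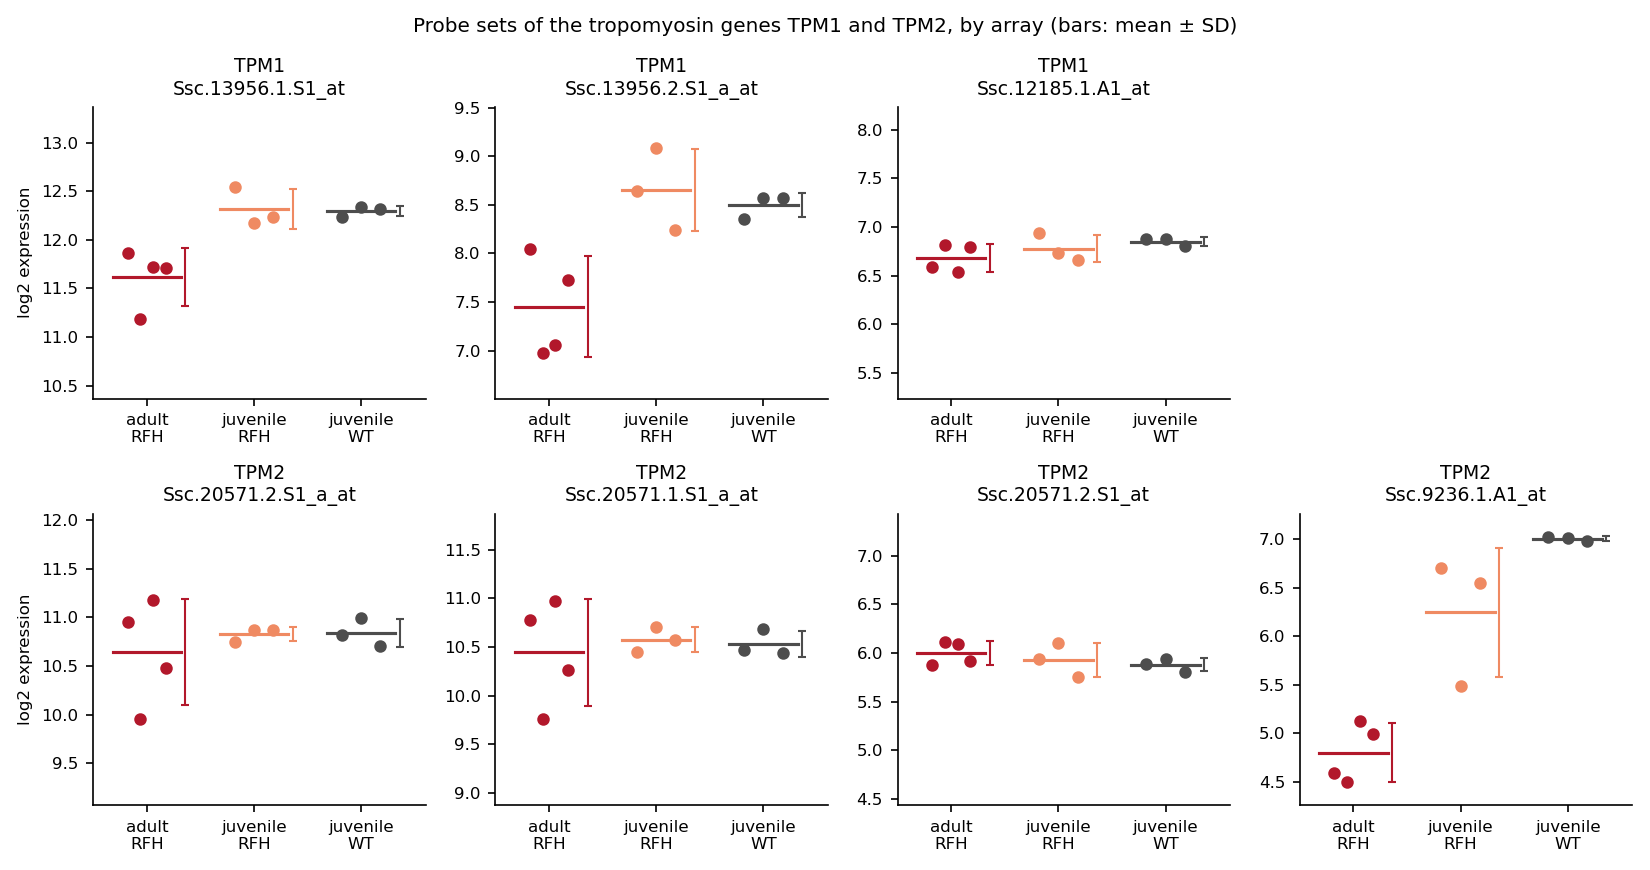
Log2 expression (vertical axis) on each adult RFH, juvenile RFH and juvenile WT array for the 3 probe sets of TPM1 (upper row) and the 4 of TPM2 (lower row), with group means and SD bars. From left to right the probe sets of a gene become dimmer. Adult points lie below all juvenile RFH points in the first 2 panels of TPM1 and the last panel of TPM2, and overlap them in the other 4.

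Among the thin filament regulators, CNN1, which encodes calponin 1, an actin-binding protein of smooth muscle, was 8.34, 8.07, 9.38 and 8.69 in adult RFH leaflets, 9.38, 9.34 and 9.04 in juvenile RFH leaflets, and 9.18, 9.21 and 9.08 in juvenile WT leaflets. Adult replicates 1, 2 and 4 lay below all juvenile arrays and replicate 3 did not. The difference was -0.64 ± 0.25 (SE), with an unadjusted p of 0.0279 and an adjusted p of 0.108. Without adult RFH replicate 3 it was -0.89 (adjusted p = 0.00485).

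TAGLN encodes transgelin (SM22-alpha), which cross-links actin and is an early gene of smooth muscle differentiation. It read 12.38, 11.90, 12.68 and 12.33 in adult RFH leaflets, 12.59, 12.38 and 12.40 in juvenile RFH leaflets, and 12.45, 12.39 and 12.33 in juvenile WT leaflets. The adult arrays spanned the juvenile range, replicate 2 being low and replicate 3 high. The difference of -0.13 had a 95% interval of -0.48 to 0.21 (adjusted p = 0.606), and without adult RFH replicate 2 it was 0.0060.

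CALD1 encodes caldesmon, which inhibits the myosin ATPase on the thin filament. Its brightest probe set lay between 12.24 and 12.60 in adult RFH leaflets and between 12.53 and 12.60 in juvenile RFH leaflets (difference -0.17, 95% interval -0.40 to 0.05, adjusted p = 0.281). The second probe set lay between 9.76 and 10.27 in adult RFH leaflets and averaged 9.97 in juvenile RFH leaflets, a difference of 0.10. The CALD1 probe sets thus differed in sign, and neither passed the test.

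MYL9, the regulatory light chain through which myosin is switched on in smooth muscle, was the single gene of the 10 with a positive difference. It read 9.31, 8.96, 9.87 and 9.19 in adult RFH leaflets, 9.20, 8.94 and 9.19 in juvenile RFH leaflets, and 9.10, 9.19 and 9.09 in juvenile WT leaflets. Adult replicates 1 and 3 stood above all juvenile arrays, and replicates 2 and 4 were among them (difference 0.22, 95% interval -0.18 to 0.62, adjusted p = 0.450).

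The intermediate filament genes did not pass the test. VIM, which encodes the filament protein of mesenchymal cells, lay between 14.20 and 14.42 in adult RFH leaflets, between 14.37 and 14.42 in juvenile RFH leaflets and between 14.44 and 14.46 in juvenile WT leaflets. Its difference between adult and juvenile RFH was -0.06, with a 95% interval of -0.24 to 0.12 (adjusted p = 0.685). That interval does not reach the size of the ACTA2 difference. The mean of VIM ranked at 99.9% of all probe sets, and how well differences are read at such high signal was not tested.

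DES encodes desmin, the filament protein of muscle cells, including cardiac muscle. Its brightest probe set read 6.86, 6.70, 7.40 and 6.65 in adult RFH leaflets, 6.88, 7.66 and 6.49 in juvenile RFH leaflets, and 6.64, 6.67 and 6.86 in juvenile WT leaflets. The highest value belonged to juvenile RFH replicate 2, the array with high cardiac transcripts, whose part in the DES values was not tested. The difference between adult and juvenile RFH was -0.10 (adjusted p = 0.823), and 0.22 without that array (adjusted p = 0.535). The second DES probe set stayed between 3.28 and 3.44 on adult RFH arrays and its difference was 0.03.

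**Figure D3:**
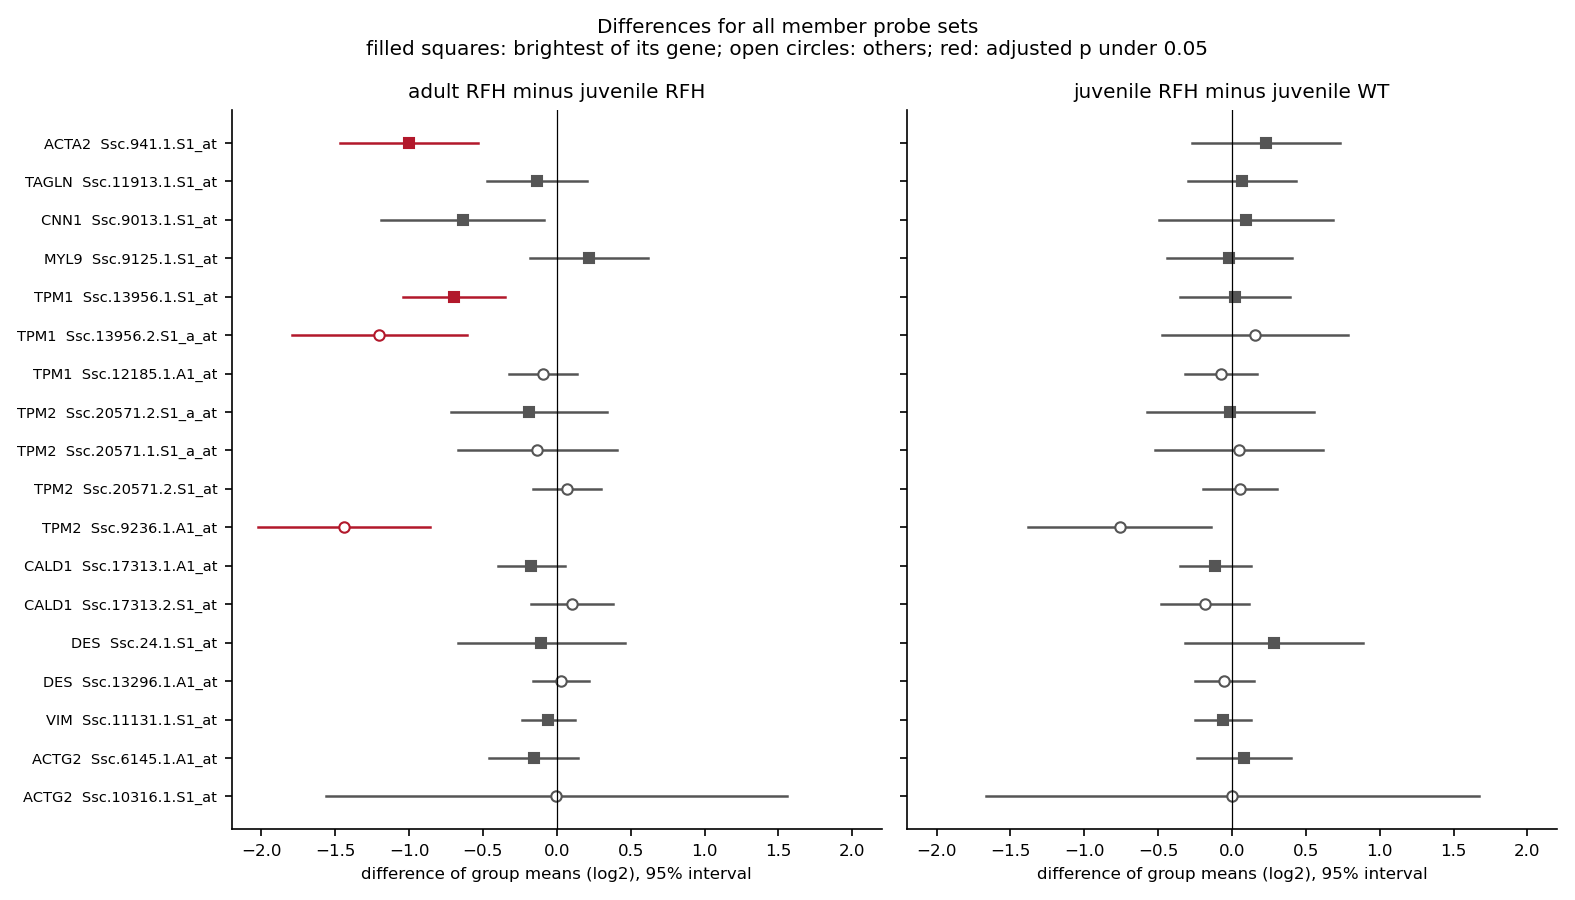
Difference of group means on the log2 scale (horizontal axis) with its 95% interval for all 18 probe sets, adult minus juvenile RFH on the left and juvenile RFH minus juvenile WT on the right. Filled squares are the brightest probe set of a gene, open circles the others, and red marks an adjusted p under 0.05, which 4 of the 18 probe sets (ACTA2, TPM1 and TPM2) reached on the left and none on the right. Over all 23999 probe sets, 16.8% reached it on the left and 0.117% on the right.

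The fall of ACTA2 was set against the other genes within each array. The 3 pairs of genes were chosen after the values were seen, each pairing a gene that fell with one that did not pass the test, so their differences are given as a description with no test. ACTA2 minus TAGLN was -0.68, -1.01, -0.80 and -0.76 on the adult RFH arrays, 0.20, 0.08 and -0.10 on the juvenile RFH arrays, and -0.23, 0.04 and -0.13 on the juvenile WT arrays. The 4 adults lay together below all juveniles, so that the array that was low for ACTA2 was low for TAGLN as well. The mean of adult minus juvenile RFH arrays was -0.87 for ACTA2 minus TAGLN, -0.85 for ACTA2 minus ACTG2 and -0.51 for TPM1 minus TPM2. The last pairs barely separated the groups. The highest adult and lowest juvenile RFH arrays were 0.327 and 0.349 for ACTA2 minus ACTG2, and 1.24 and 1.30 for TPM1 minus TPM2.

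The adult leaflets varied among themselves in most of these genes. The SD over the 4 adult arrays was 0.57 for CNN1, 0.55 for TPM2, 0.43 for ACTA2 and 0.39 for MYL9, against a median of 0.196 over all genes, while VIM had 0.0954 and ACTG2 0.135. It lay above that median for 7 of the 10 genes, all but CALD1, VIM and ACTG2. Adult replicate 2 was the lowest adult array for 9 of the 10 genes, all but DES, and replicate 3 was the highest for 6, ACTA2, TAGLN, CNN1, MYL9, TPM2 and DES. The highest adult array was replicate 4 for CALD1, VIM and ACTG2 and replicate 1 for TPM1. Over deviations from the group means, the Pearson r of the 45 gene pairs ran from -0.31 to 0.93 with a median of 0.56, and it was above 0.5 in 24 pairs and below 0 in 4. The share of all gene pairs above 0.5 was not computed, so these counts do not set the 10 genes apart. ACTA2 had an r of 0.93 with TAGLN, 0.90 with TPM1 and 0.82 with TPM2, TAGLN had 0.89 with MYL9, ACTA2 had 0.10 with ACTG2, CALD1 had -0.10 with MYL9 and DES had -0.31 with ACTG2 (10 arrays, which share groups and in which the 4 adults carry most of the spread). Among all genes ordered by their r with ACTA2, TAGLN ranked 9, TPM1 19 and TPM2 89. CNN1 ranked 183, MYL9 235, VIM 393, CALD1 1191, DES 1415 and ACTG2 2520. By r with TAGLN, ACTA2 ranked 26, MYL9 58, CNN1 97, TPM2 108, TPM1 260 and VIM 459. DES, ACTG2 and CALD1 ranked 1594, 2073 and 2149 by r with TAGLN.

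**Figure D4:**
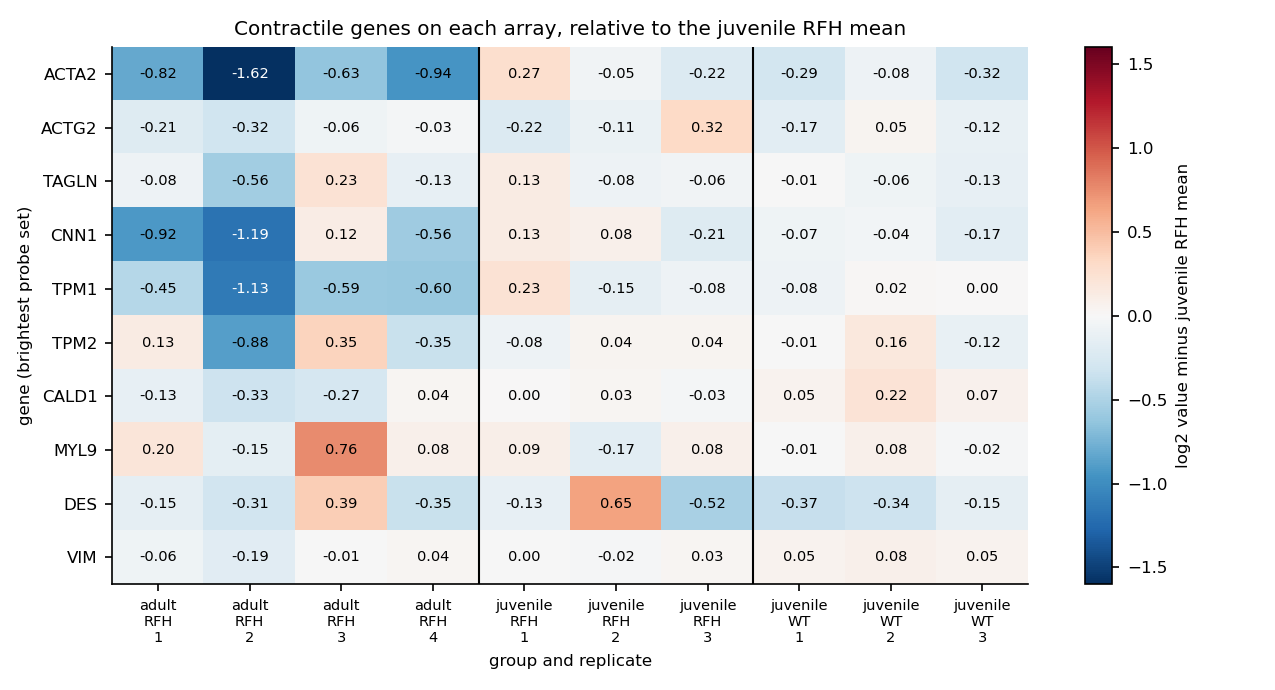
Log2 value of the brightest probe set minus the juvenile RFH mean, for each gene (rows) on each array (columns, adult RFH, then juvenile RFH, then juvenile WT), with blue below and red above that mean. ACTA2 and TPM1 are blue on all 4 adult arrays, adult replicate 2 is blue in every row, and DES is reddest on juvenile RFH replicate 2.

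Markers of other leaflet cells moved between the same arrays. Called genes between adult and juvenile RFH were 53.8% of the fibroblast, 42.9% of the endothelial and 50% of the macrophage markers. Over all 6765 genes they were 19.3%. The mean of 13 interstitial fibroblast markers was 11.54, 11.32, 11.79 and 11.92 on adult RFH arrays, against 11.92 to 11.97 on juvenile RFH and 11.88 to 11.94 on juvenile WT arrays, and 2 of the 13 rose while 5 fell between adult and juvenile RFH. Adult replicate 2, low for the contractile genes, was also the lowest in this mean. ASPN, a small matrix proteoglycan, fell by 1.07, and S100A4, a calcium-binding protein of motile fibroblasts and immune cells, was higher by 1.29 in adult than in juvenile RFH leaflets. S100A4 was also higher by 1.19 in juvenile RFH than in juvenile WT leaflets, without passing limma's test (unadjusted p = 0.000600, adjusted p = 0.105).

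The mean of 14 endothelial markers was 9.45, 9.70, 8.79 and 9.34 on adult RFH arrays, against 8.54 to 8.79 on juvenile RFH and 8.20 to 8.52 on juvenile WT arrays. Of these markers 5 rose, among them thrombomodulin (THBD) by 1.58, and 1 fell, the transcription factor ERG by 0.43. The mean of 12 macrophage markers was 10.79, 10.90, 10.31 and 10.31 on adult RFH arrays, against 9.86 to 9.91 on juvenile RFH and 9.47 to 9.62 on juvenile WT arrays, and 6 rose, CD14 by 0.92. For both lists adult replicate 2 was highest. Over the alternatives, 4 to 10 endothelial and 4 to 10 macrophage markers were called, with 10 of each without adult RFH replicate 3. The part of these cells in the ACTA2 and TPM1 differences was not tested.

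Of 7 measured smooth muscle and pericyte markers, 3 fell in adult compared with juvenile RFH leaflets, as ACTA2 did, and 4 did not pass the test. The called share was 42.9% of this list and 4.35% of the 23 cardiac markers, against 19.3% of all 6765 genes. The mean of the 7 was 7.70 to 8.01 on adult RFH arrays, 8.25 to 8.58 on juvenile RFH arrays and 8.01 to 8.22 on juvenile WT arrays. The highest of these means was that of juvenile RFH replicate 2, where PLN, which is also on the cardiac list, read 9.09, against 6.88 and 6.79 on the other juvenile RFH arrays. Without PLN the mean of 6 markers was 7.72 to 8.17 on adult RFH arrays, 8.49 to 8.63 on juvenile RFH arrays and 8.33 to 8.47 on juvenile WT arrays, and replicate 1 was the highest juvenile RFH array. MYOCD, the SRF cofactor of smooth muscle, fell by 1.16, the pericyte gene RGS5 by 1.27 and the receptor PDGFRB by 0.42. RGS5 read 7.47 to 8.81 on adult RFH, 8.86 to 9.83 on juvenile RFH and 8.11 to 8.69 on juvenile WT arrays. Its adult RFH values thus overlapped those of juvenile WT. So did those of MYOCD, at up to 7.10 on adult RFH and 7.01 to 7.66 on juvenile WT arrays. The differences of ITGA8, PLN, SMTN and KCNMB1 were -0.66, -0.10, -0.09 and -0.03. The 3 calls were fragile: no marker of the 7 was called without juvenile RFH replicate 1, with juvenile WT left out of the fit or with values below 4 raised to 4, and 1 was called with array weights or without juvenile RFH replicate 2, juvenile RFH replicate 3, adult RFH replicate 1 or adult RFH replicate 2. Their part in the ACTA2 difference was not tested. Among 23 cardiac markers 1 fell, ATP2A2, the calcium pump of the sarcoplasmic reticulum, by 0.48, and none was called without juvenile RFH replicate 2, against up to 3 under the other alternatives. None of 9 skeletal muscle markers was called by limma (1 at an unadjusted p under 0.05, and 1 called without adult RFH replicate 3 or with the 3' to 5' difference as a covariate).

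Between juvenile RFH and juvenile WT leaflets, none of the 10 genes was called by limma, and none had an unadjusted p under 0.05, which 15.1% of all genes had. Few genes were called at all in this comparison, 0.133% of 6765. The number of calls depended on the fit. It was 28 probe sets here, 872 with the adult RFH arrays left out and 1171 with array weights. None of the 10 genes was called in those fits either. The median difference of the 10 genes was 0.04, against 0.07 over all genes. The difference in ACTA2 was 0.23, with a 95% interval of -0.27 to 0.73 (adjusted p = 0.738). TAGLN differed by 0.07 (-0.30 to 0.43), CNN1 by 0.10 (-0.49 to 0.69), TPM1 by 0.02 (-0.35 to 0.39) and MYL9 by -0.02 (-0.44 to 0.41). A p above the threshold does not show that the groups are alike, and these intervals allow differences of the sizes just given.

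CALD1 and VIM were the genes whose juvenile groups did not overlap, both lower in juvenile RFH. Over all genes 35.8% did not overlap, 9.53% as lower values in juvenile RFH. For CALD1, juvenile RFH read 12.57, 12.60 and 12.53 and juvenile WT 12.62, 12.79 and 12.63 (difference -0.11, adjusted p = 0.732). For VIM, juvenile RFH read 14.39, 14.37 and 14.42 and juvenile WT 14.44, 14.46 and 14.44 (difference -0.06, adjusted p = 0.834). The dimmest TPM2 probe set had the largest difference of the 18 in this comparison, -0.76 ± 0.28 (SE), with an unadjusted p of 0.0209 and an adjusted p of 0.298. Without juvenile RFH replicate 2, its lowest juvenile array, the difference was -0.38. DES was higher by 0.28 in juvenile RFH (adjusted p = 0.730), and the difference was -0.041 without juvenile RFH replicate 2.

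The partners of the contractile genes were read from 4 lists. Called genes between adult and juvenile RFH were 21.4% of the myosin list and 19.4% of the actin filament list. Both are close to the 19.3% of all 6765 genes. They were 40% of the 10 SRF genes and 27.3% of the 11 intermediate filament genes. Of 14 measured genes of myosin and its regulation, 3 rose and none fell in adult compared with juvenile RFH leaflets, with a median difference of 0.09. Among them, the kinase ROCK1, which raises light chain phosphorylation, rose by 0.54 ± 0.11 (SE, adjusted p = 0.0088). It read 9.90, 9.84, 10.11 and 10.16 on adult RFH arrays, 9.48, 9.51 and 9.41 on juvenile RFH arrays, and 9.95, 9.96 and 9.68 on juvenile WT arrays. The adult RFH values lay above all juvenile RFH values and overlapped those of juvenile WT. MYH11, the smooth muscle myosin heavy chain, was not analysed here.

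Of 31 measured genes of the actin filament and stress fibre, 4 rose and 2 fell, with a median of 0.08. TAGLN2, a relative of transgelin found in many cell types, rose by 0.87 ± 0.10 (SE, adjusted p = 0.000513), on the same arrays on which TAGLN did not pass the test. It read 12.82, 12.95, 12.67 and 13.03 in adult RFH leaflets, against 11.98, 12.09 and 11.92 in juvenile RFH leaflets. CAPZB, which caps the fast-growing filament end, rose by 0.38 and TMOD1, which caps the slow end, by 0.97. Both of these calls were lost without juvenile RFH replicate 3, and without it 3 genes of the list were called. The TMOD1 call was lost under 7 of 20 alternatives.

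PDLIM3, which binds alpha-actinin, fell by 1.34 ± 0.23 (SE, adjusted p = 0.00426). It read 9.84, 8.87, 9.70 and 9.91 on adult RFH arrays, against 11.27, 10.69 and 10.81 on juvenile RFH arrays, with adult replicate 2 lowest as for ACTA2. VCL, which encodes vinculin, the link between stress fibres and focal adhesions, fell by 0.50 ± 0.10 (adjusted p = 0.0102). PDLIM3 and VCL passed the test under all alternatives run.

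Of 10 measured regulators and targets of actin signalling through SRF, 2 rose and 2 fell, with a median of -0.02. KLF4, a transcription factor that represses contractile genes in cultured rodent smooth muscle cells, rose by 0.95 ± 0.13 (SE, adjusted p = 0.000972). CYR61, a secreted matrix protein that answers to SRF and YAP, rose by 1.05 ± 0.23 (adjusted p = 0.0125). It read 12.41, 12.72, 13.05 and 12.94 on adult RFH arrays and 11.92, 11.27 and 12.01 on juvenile RFH arrays. Juvenile WT arrays, at 12.81, 12.39 and 12.02, overlapped the adult RFH ones. TEAD1, the DNA-binding partner of YAP, fell by 0.71 ± 0.11 (adjusted p = 0.0024), and MYOCD, also among the smooth muscle markers above, fell by 1.16 ± 0.31 (adjusted p = 0.0268). MYOCD read 6.10, 6.49, 7.10 and 5.57 on adult RFH arrays, against 7.62, 7.18 and 7.62 on juvenile RFH arrays, and its call was lost without adult RFH replicate 1, juvenile RFH replicate 1 or juvenile RFH replicate 3, with juvenile WT left out of the fit, and with values below 4 raised to 4.

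Of 11 measured intermediate filament genes and their partners, 3 rose and none fell, with a median of 0.06. LMNA, the gene of the A-type lamins that line the nucleus, rose by 1.22 ± 0.12 (SE, adjusted p = 0.000189). The small heat shock proteins HSPB1 and CRYAB, chaperones that bind actin and desmin filaments, rose by 0.80 ± 0.10 (adjusted p = 0.000669) and 0.92 ± 0.12 (adjusted p = 0.000748). Of the 13 called genes named here from the 4 lists, 10 were called whichever array was left out.

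**Figure D5:**
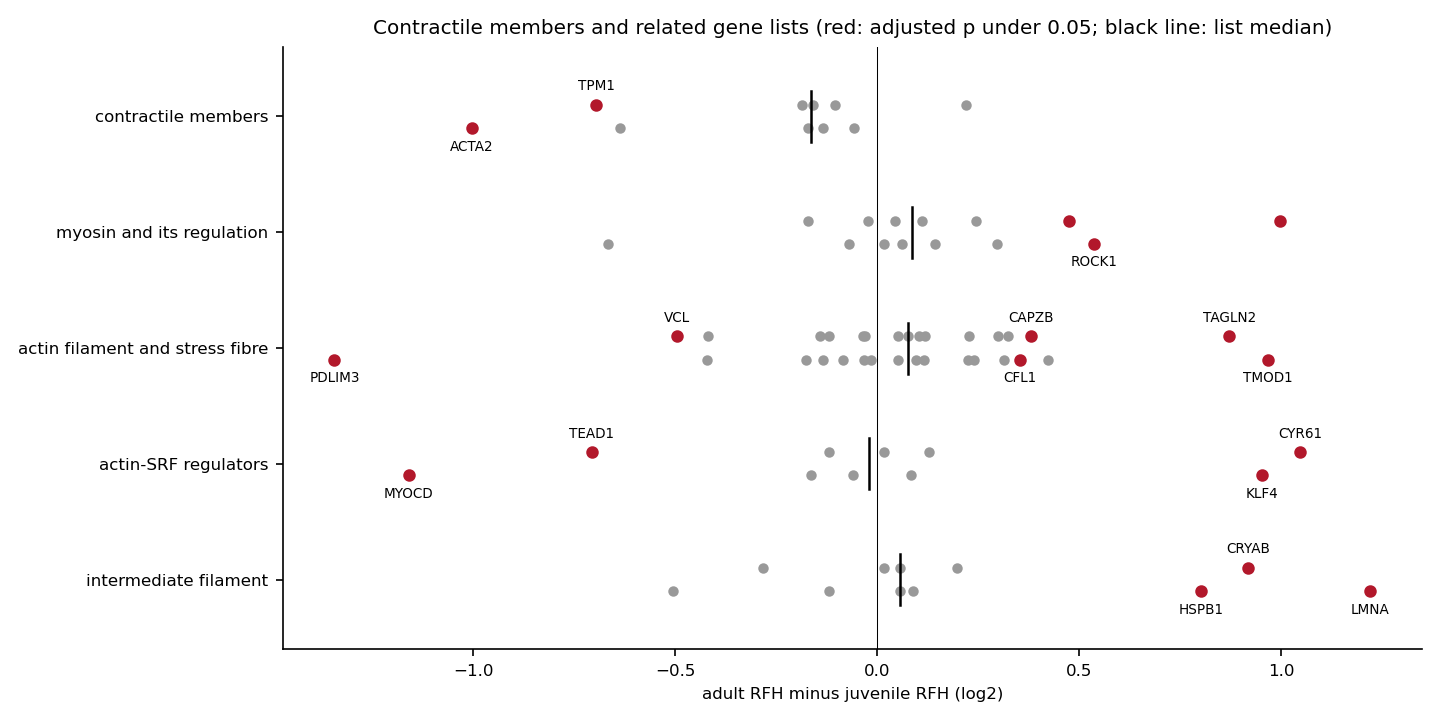
Difference between adult and juvenile RFH leaflets on the log2 scale (horizontal axis) for the 10 contractile genes and the 4 lists of partner genes, 1 point per gene, with the median of each list as a black line and genes with an adjusted p under 0.05 in red. ACTA2 and TPM1 lie to the left, and called genes lie on both sides in the actin filament and SRF lists.

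Between juvenile RFH and juvenile WT, limma called none of the genes of the 4 lists. In the order given, 3 of 14, 1 of 31, 4 of 10 and 2 of 11 genes had an unadjusted p under 0.05. Over all genes 15.1% had such a p and 0.133% were called. Within each list, the smallest p belonged to ROCK2 (-0.55, unadjusted p = 0.00576), the tropomodulin TMOD3 (-0.52, 0.0144), CYR61 (-0.68, 0.0196) and synemin, SYNM (-0.62, 0.00236). Of these, ROCK2 and SYNM were called when the adult RFH arrays were left out of the fit, and ROCK2, TMOD3 and SYNM when the arrays were weighted.

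The genes most like ACTA2 over the 10 arrays, by Pearson's r of log2 values, were TMEM45A (0.96), the member TPM1 (0.96), SMARCD3 (0.96), TMEM169 (0.96), PDLIM3 (0.95) and DCTN2 (0.95). Those most like TAGLN were C1QTNF5 (0.94), DBNDD1 (0.93), SMTN (0.91), FEZ1 (0.91) and TADA3 (0.91), and SMTN encodes smoothelin, a cytoskeletal protein of smooth muscle. The lists nearest to ACTA2 and TAGLN shared no gene. Both lists are short, and the values hold the group difference, which was called for ACTA2 and not for TAGLN. The lack of a shared gene therefore does not set ACTA2 and TAGLN apart, whose r over deviations from group means was 0.93. Over deviations from the group means, the nearest to ACTA2 was SH3BGR (0.97), followed by FASTK, FAM129C, ABHD14A and SLC25A1. The nearest to TAGLN was CIC (0.99), followed by UBE2QL1, PCSK1N, DYNC1I1 and FXYD7. With 10 arrays in 3 groups and 6765 genes, these are descriptions of likeness and not tests.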

How the data were processed

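The authors deposited 1 table of log2 expression, with a value for every probe set on every array; the unit was read from the values. The submitters' processing notes name R 2.15.2. How the probe signals were background-corrected, normalized and summarised by the submitters is not given in the sources used here. No detection calls were used, and 3 or 4 arrays per group limit the precision. Tests ran on 23999 probe sets, without the 124 controls.

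Group means were fitted to all 10 arrays in R 4.3.3 by limma 3.58.1 (lmFit and eBayes, no trend), sharing 1 spread with 7 residual degrees of freedom. Tests were two-sided, with Benjamini-Hochberg adjustment over the 23999 probe sets, and "rose", "fell" or "called" means an adjusted p under 0.05. Intervals are limma's 95% intervals, unadjusted. The fit was tried on simulated data that had the same spread in all groups. How it does with spreads that differ between groups, as here, was not tested.

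The 10 genes, the gene lists and the tests were chosen with earlier results of these data known. Named were all 10 genes, in each partner list the called genes with the smallest p (up to 3 per direction and comparison, otherwise the gene with the smallest p), in each marker list the called gene with the smallest p per direction or those with the highest means, and the 5 genes most like ACTA2 and TAGLN. Some genes that this rule would name are not reported here. All 18 probe sets carried gene IDs that give the same symbol in RefSeq.

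The alternatives were quantile normalization, median centring, cyclic loess, leaving out dim probe sets, a fit of the 2 groups compared, a trended robust prior, array weights, a replicate block, a floor that raised values below 4 to 4, averaging of the probe sets of a gene, and each array left out in turn. A covariate for the 3' to 5' difference was added after the data were seen.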

Additional observations from a re-analysis of the deposited data

How the results depend on the processing

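In adult against juvenile RFH, 2 of the 10 genes were called under every alternative other than leaving out single arrays, and 0 to 3 when 1 array was left out: 0 without juvenile RFH replicate 1 and 3 without adult RFH replicate 3, which added CNN1. ACTA2 ranged from -1.13 to -0.80 and TPM1 from -0.78 to -0.55 over all alternatives. Called probe sets (4025) numbered 2308 with only the 2 groups fitted and 2243 to 4965 with 1 array left out. In juvenile RFH against WT, 0 of the 10 genes were called throughout, and the 28 called probe sets became 6 without dim probe sets, 872 with only the 2 groups fitted, 1171 with array weights, 17 with the replicate block, 10 with values raised to 4, 62 with the 3' to 5' covariate (chosen after the data were seen) and 2 to 71 with 1 array left out; the cause was not tested. Whether the replicate numbers pair the samples cannot be settled with 3 or 4 arrays per group. Deviations of 9 same-numbered pairs had r of -0.16 to 0.19, with 2 above 0.1, and those of differently numbered pairs -0.20 to 0.19. With the replicate block ACTA2 was -1.02 (adjusted p = 0.0276) and TPM1 -0.73 (adjusted p = 0.0203), and 2 genes were called.

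No called difference changed sign. Differences that did not pass the test changed sign in 37 of 1216 gene or probe set values, 16 of them among the 408 of the brightest probe sets. With 1 array left out, adult minus juvenile RFH ranged from -0.25 to 0.0060 for TAGLN, -0.37 to 0.043 for TPM2, -0.31 to 0.099 for its next brightest probe set, -0.021 to 0.15 for the one after that, -0.27 to 0.0035 for ACTG2, -0.62 to 0.70 for its second probe set, -0.37 to 0.22 for DES and -0.0054 to 0.082 for its second. Juvenile RFH minus WT ranged from -0.095 to 0.094 for TPM1, -0.061 to 0.36 for its next brightest probe set, -0.080 to 0.065 for TPM2, -0.016 to 0.12 for its next brightest, -0.031 to 0.14 for the one after that, -0.063 to 0.066 for MYL9, -0.041 to 0.54 for DES, -0.080 to 0.19 for ACTG2 and -0.70 to 0.56 for its second probe set. That ACTG2 probe set, adult minus juvenile RFH, was 0.026 with median centring, 0.031 with cyclic loess, 0.028 with array weights, 0.15 with the replicate block and 0.017 with the covariate. In juvenile RFH against WT it was -0.17 with array weights and -0.20 with the covariate, TPM1 was -0.011 with quantile normalization and -0.015 with cyclic loess, TPM2 was 0.0036 with median centring, its next brightest probe set -0.0014 with the covariate, and CNN1 -0.036 with the covariate. The second DES probe set gave no value with the floor, since it lay below 4 on all arrays.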
